A study of Mus musculus with 8 samples.

Results

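The S100 proteins are a family of small calcium-binding proteins, and 8 of their genes are described: S100a8, S100a9, S100a4, S100a6, S100a10, S100a11, S100a13 and S100a1. They were picked by symbol from the 52550 genes of the expression tables, and all 8 were found in every library. RNA was sequenced from pre-pro-B and pro-B cells, early B lineage stages sorted by flow cytometry from bone marrow of C57BL/6J mice. The mice were wild type (WT) or lacked lactoferrin (Lf-/-), the iron-binding protein of milk and neutrophil granules that Ltf encodes, and the labels gave no treatment. For pre-pro-B cells there were 2 libraries of each genotype, and for pro-B cells 1 library with WT genotype and 2 with Lf-/- genotype. The other labelled sample, WT pro-B replicate 2, was not used here. The labels do not say whether each library came from a separate mouse, so p-values measured only the spread between these libraries, which may be technical.

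S100 proteins bind calcium through EF-hand motifs, mostly as dimers, and then change shape and hold on to partner proteins. S100a8 and S100a9 form calprotectin, which fills the cytosol of neutrophils, withholds zinc and manganese from microbes and acts on Toll-like receptors once it is released. Other members work mainly inside the cell, on annexins, myosin and membranes.

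The level of Ltf was examined first. It was 2143 and 2731 FPKM (fragments scaled to transcript length and library depth) for WT pre-pro-B and 2650 FPKM for WT pro-B, whereas Lf-/- libraries had 88.2 and 149 FPKM at the pre-pro-B stage and 168 and 96.0 FPKM at the pro-B stage. All 4 Lf-/- libraries lay below all 3 WT libraries, as their labels state. Over both stages Ltf fell by 4.38 on the log2(FPKM + 1) scale, with an adjusted p of 0.00206 in limma.

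The sorted stages were then checked against 20 early B lineage markers. The sum of their levels was 936 and 964 FPKM at the WT pre-pro-B stage and 449 FPKM at the WT pro-B stage, and with Lf-/- genotype 3972 and 3009 FPKM for pre-pro-B and 3515 and 1968 FPKM for pro-B. Cd24a led them in the WT libraries and Cd79a in the Lf-/- libraries, Rag1 was listed at 0 in WT pro-B, and Rag2 and Bst1 were listed at 0 in Lf-/- pre-pro-B replicate 2. The sums overlapped between the stages. Of the 19 markers tested, 15 were lower in pro-B cells, with a median log2 difference of -0.36, while 47.4% of all genes were higher. None of the markers passed the threshold, so they gave no call that tells the stages apart. Genes of neutrophils were far more abundant. The 18 neutrophil markers summed to between 75324 and 180642 FPKM, all 18 were at 1 FPKM or more in each library, and Ngp led them throughout. The libraries are therefore called by their labels, and the levels are those of the sequenced RNA and not of a pure B lineage stage.

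Lf-/- pre-pro-B replicate 2 stood apart. It had 12172 genes above 0, against 19477 to 20250 in the other 6 libraries, although its estimated depth was 1.44 times that of WT pre-pro-B replicate 1. Across the 3235 genes with a mean of at least 10 FPKM, its correlation with the other libraries on the log2(FPKM + 1) scale reached at most 0.792. Differences of the S100 genes between groups that rest on it are given with and without it, and those of the marker lists only with it.

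All 8 genes lie on chromosome 3 of the GRCm38 build. S100a1, S100a13, S100a4, S100a6, S100a8 and S100a9 follow each other between bases 90511034 and 90695721, and S100a11 and S100a10 lie between 93520488 and 93564643. S100a1 and S100a13 point away from each other with 42 bases between them. Promoter windows were found for 7 of the 8 genes in RefSeq (GRCm38.p6), all but S100a10, and those of S100a1 and S100a13 shared 204 bases. The windows of S100a8 (chr3:90668821-90669120, plus strand) and S100a9 (chr3:90695672-90695971, minus strand) are printed because the levels of these genes moved together. Capitals mark TATAAA, the letters of a TATA box, then GCAAT, a core bound by C/EBP factors, and GGAAGT, a core bound by PU.1, on either strand.
S100a8: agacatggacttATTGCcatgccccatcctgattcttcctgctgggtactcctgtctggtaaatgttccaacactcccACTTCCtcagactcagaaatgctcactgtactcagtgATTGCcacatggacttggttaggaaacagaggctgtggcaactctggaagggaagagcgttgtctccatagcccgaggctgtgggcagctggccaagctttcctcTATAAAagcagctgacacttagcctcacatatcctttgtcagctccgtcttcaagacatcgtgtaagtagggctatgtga
S100a9: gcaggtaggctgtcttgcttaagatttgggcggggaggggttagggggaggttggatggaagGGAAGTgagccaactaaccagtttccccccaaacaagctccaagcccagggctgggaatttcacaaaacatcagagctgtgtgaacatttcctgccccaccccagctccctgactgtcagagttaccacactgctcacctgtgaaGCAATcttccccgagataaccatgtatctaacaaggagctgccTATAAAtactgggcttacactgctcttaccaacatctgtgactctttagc
Both windows held each of these motifs, and GCAAT was found at 2 places in the S100a8 window. Of all 32851 promoters of the same length, 13.6% held TATAAA, 26.4% held GCAAT and 23.8% held GGAAGT on either strand. The longer PU.1 motif GAGGAAGT, which contains GGAAGT, was found in the windows of S100a8 and S100a4 and in 3.20% of all promoters. TATAAA was also found in the S100a4 window, GGAAGT in all windows but that of S100a6, and GCAAT in none of the other 5 windows. Counted from the start site, TATAAA began at base -30 in the S100a8 and at base -31 in the S100a4 window, but at 0, the start site itself, in the S100a9 window. A match describes the letters of a window and is no evidence of binding.

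S100a8 and S100a9 encode the subunits of calprotectin. For pre-pro-B cells the S100a8 level was 103669 and 94259 FPKM with WT genotype and 110640 and 52882 FPKM with Lf-/- genotype, and for pro-B cells 150489 FPKM with WT and 89298 and 100733 FPKM with Lf-/- genotype. S100a9 stood at 80684 and 73784 FPKM (WT) and at 77788 and 48352 FPKM (Lf-/-) for pre-pro-B, and at 113079 FPKM (WT) and 72047 and 74794 FPKM (Lf-/-) for pro-B. WT pro-B was the highest and Lf-/- pre-pro-B replicate 2 the lowest library for both genes, and the genotypes overlapped at the pre-pro-B stage. On the FPKM scale S100a8 ranked 1 and S100a9 ranked 2 among all genes in each of the 7 libraries. In bulk samples, fewer cells of a type and less RNA per cell cannot be told apart.

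The ratio of S100a8 to S100a9 varied less than either level. It was 1.28 for both WT libraries and 1.42 and 1.09 for both Lf-/- libraries of pre-pro-B cells, and 1.33 for WT and 1.24 and 1.35 for Lf-/- libraries of pro-B cells. S100a8 was thus above S100a9 per length in all 7 libraries, with the lowest ratio in Lf-/- pre-pro-B replicate 2. The log2 levels of the pair had a Pearson correlation of 0.984 over the 7 libraries and of 0.967 without that library.

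S100a11, which binds annexin A1 at membranes, came next in level. Pre-pro-B libraries had 1129 and 1251 FPKM of S100a11 (WT) and 789 and 1066 FPKM (Lf-/-), and pro-B libraries 1460 FPKM (WT) and 1571 and 1500 FPKM (Lf-/-). All 3 pro-B libraries lay above all 4 pre-pro-B libraries, and both Lf-/- pre-pro-B libraries lay below both WT ones. Annotated copies of S100a11 could take or give reads. Gm12854 is 99.0% identical over 297 bases and had between 43.3 and 74.9 FPKM, and Gm7665 is 98.7% identical over 297 bases and had between 65.4 and 123 FPKM. The level of S100a11 is uncertain by the reads that these copies share.

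S100a6, or calcyclin, binds annexins and the calcyclin-binding protein Cacybp. Pre-pro-B libraries had 139 and 224 FPKM of S100a6 (WT) and 67.8 and 79.2 FPKM (Lf-/-), and pro-B libraries 152 FPKM (WT) and 361 and 224 FPKM (Lf-/-). The Lf-/- libraries were below WT at the pre-pro-B stage and above the WT library at the pro-B stage. S100a4, a partner of non-muscle myosin linked to cell movement, stood at 134 and 165 FPKM (WT) and 64.4 and 204 FPKM (Lf-/-) for pre-pro-B, and at 59.8 FPKM (WT) and 124 and 70.7 FPKM (Lf-/-) for pro-B. For S100a4 the Lf-/- pre-pro-B replicates lay on either side of both WT libraries. S100a4 overlaps the annotated gene Gm42674, which was listed at 0 in all libraries and could share its reads.

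S100a10 joins annexin A2 at membranes and, unlike the other members, does not need calcium for it. Pre-pro-B libraries had 67.7 and 66.8 FPKM of S100a10 (WT) and 68.7 and 166 FPKM (Lf-/-), and pro-B libraries 40.6 FPKM (WT) and 137 and 104 FPKM (Lf-/-). All 4 Lf-/- libraries lay above all 3 WT libraries, but Lf-/- pre-pro-B replicate 1 was only just above the WT libraries of its stage. S100a1, known as a regulator of calcium handling in muscle, stood at 134 and 185 FPKM (WT) and 89.0 and 66.9 FPKM (Lf-/-) for pre-pro-B, and at 88.1 FPKM (WT) and 48.5 and 116 FPKM (Lf-/-) for pro-B. The WT pre-pro-B libraries were the highest for S100a1, and the pro-B genotypes overlapped. S100a13, which takes part in the release of proteins without a signal peptide, had between 58.3 and 95.8 FPKM, and its highest value was 1.64 times its lowest.

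**Figure D1:**
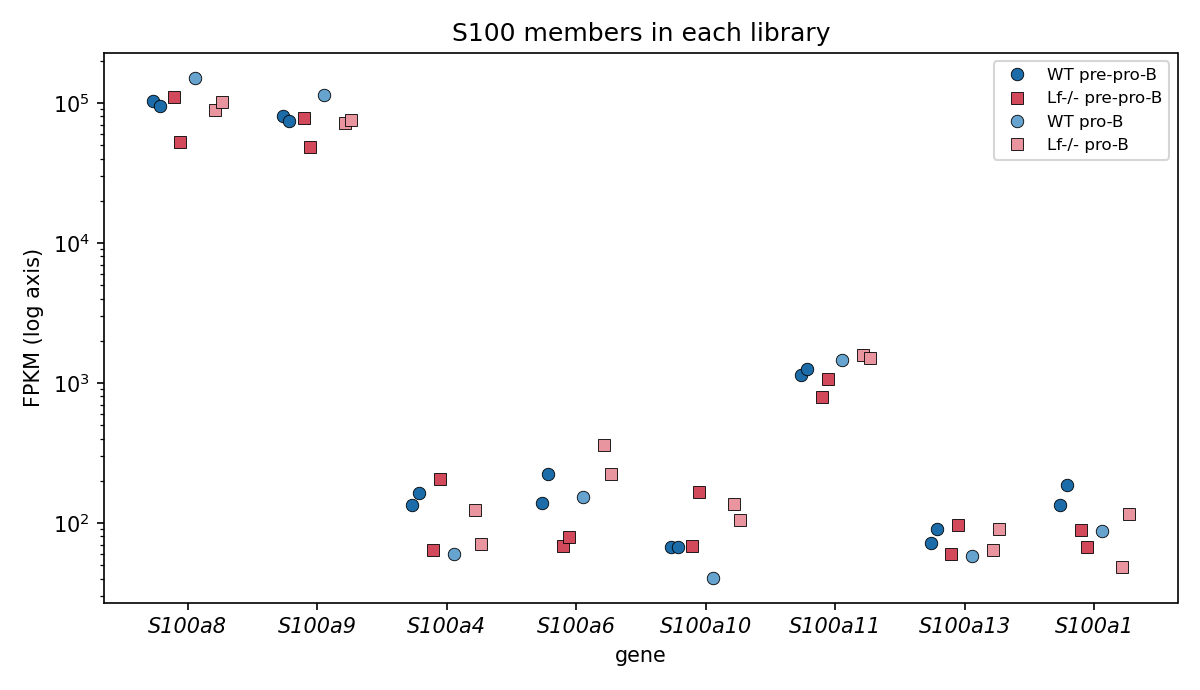
FPKM of the 8 S100 genes (log axis) in each library, 1 point per library, circles for WT and squares for Lf-/-, coloured by genotype and stage. S100a8 lies between 52882 and 150489 FPKM, S100a9 between 48352 and 113079 FPKM, S100a11 between 789 and 1571 FPKM and the other 5 genes between 40.6 and 361 FPKM.

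By mean FPKM over the 7 libraries, the order was S100a8 (100281), S100a9 (77218), S100a11 (1252), S100a6 (178), S100a4 (117), S100a1 (104), S100a10 (93.0) and S100a13 (75.7). S100a11 was apart from its neighbours in this order in every library, whereas the ranges of S100a8 and S100a9, and of each neighbouring pair from S100a6 down, overlapped. On the log2(FPKM + 1) scale, the SD over the 7 libraries ran from 0.30 for S100a13 to 0.85 for S100a6, beside a median of 0.45 over the 3235 genes with a mean of at least 10 FPKM. By the estimated depths, between about 357 and 1037223 fragments stood behind a member's value in a library. The absolute depths are uncertain, and counting error and the number of molecules behind these fragments were not measured.

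The 8 genes made up a large part of each library. Their share of summed FPKM was 23.3% and 21.9% (WT) and 22.7% and 14.8% (Lf-/-) for pre-pro-B, and 31.8% (WT) and 22.3% and 24.3% (Lf-/-) for pro-B. WT pro-B was above and Lf-/- pre-pro-B replicate 2 below the other 5 libraries, which lay between 21.9% and 24.3%. S100a8 and S100a9 alone held between 14.6% and 31.6%, and the other 6 genes between 0.137% and 0.314%. S100a11 held between 63.2% and 78.5% of the summed FPKM of those 6. These are shares per transcript length and not shares of reads.

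**Figure D2:**
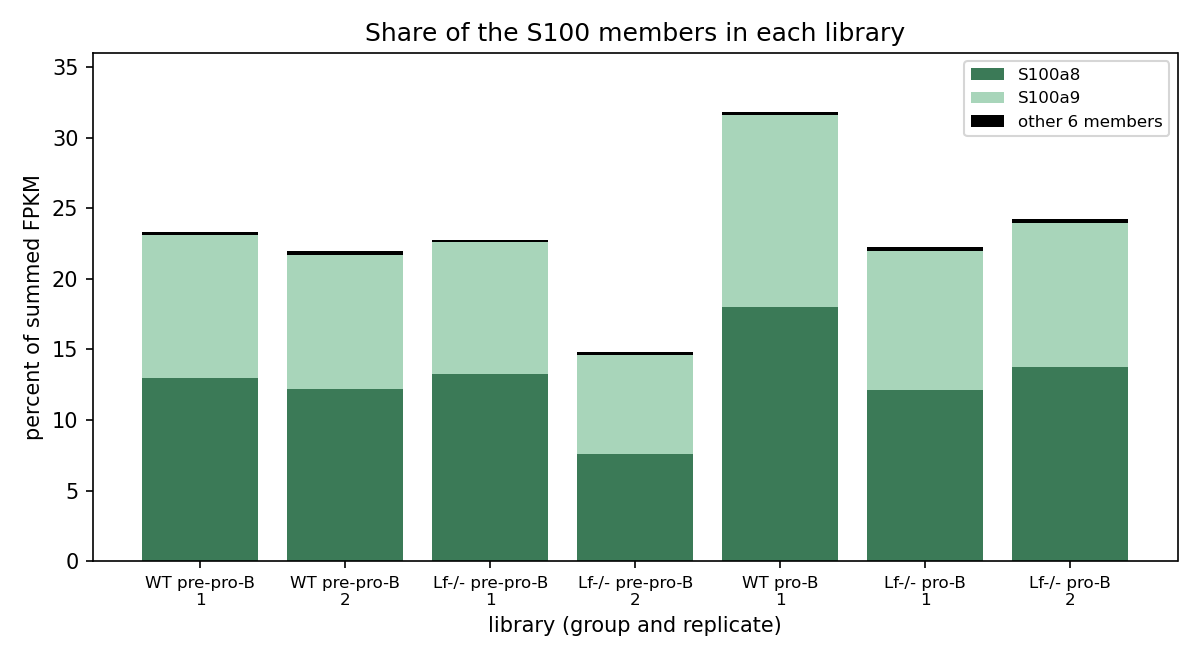
Percent of summed FPKM held by S100a8, S100a9 and the other 6 members in each library, as bars stacked from 0. The bars end between 14.8% in Lf-/- pre-pro-B replicate 2 and 31.8% in WT pro-B.

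The neutrophil markers were set beside the S100 share. The 18 markers held 16.1% and 17.4% (WT) and 15.2% and 10.8% (Lf-/-) of summed FPKM for pre-pro-B, and 21.6% (WT) and 12.7% and 15.7% (Lf-/-) for pro-B. The libraries with the highest and the lowest S100 share were also the highest and the lowest for these markers, whose part in the result was not tested. Between them the orders differed, since WT pre-pro-B replicate 2 had less S100 (21.9%) and more of the markers (17.4%) than Lf-/- pro-B replicate 2 (24.3% and 15.7%). Single markers also differed from their sum. In Lf-/- pre-pro-B replicate 2, Ngp and Camp were at their lowest, but Ly6g (529 FPKM), Cd177 (338 FPKM) and Csf3r (21.7 FPKM) at their highest. On the FPKM scale S100a8 over Camp, a neutrophil granule gene, ran from 2.62 to 3.18, and S100a8 over Ngp, another, from 1.45 to 2.06. The 9 erythroid markers, led by Hba-a1 in each library, summed to between 15159 and 106039 FPKM. They were highest in Lf-/- pre-pro-B replicate 2, with 15.3% of summed FPKM, and their part in the low S100 share of that library was not tested. None of the 18 neutrophil and 9 erythroid markers was listed at 0 in any library.

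**Figure D3:**
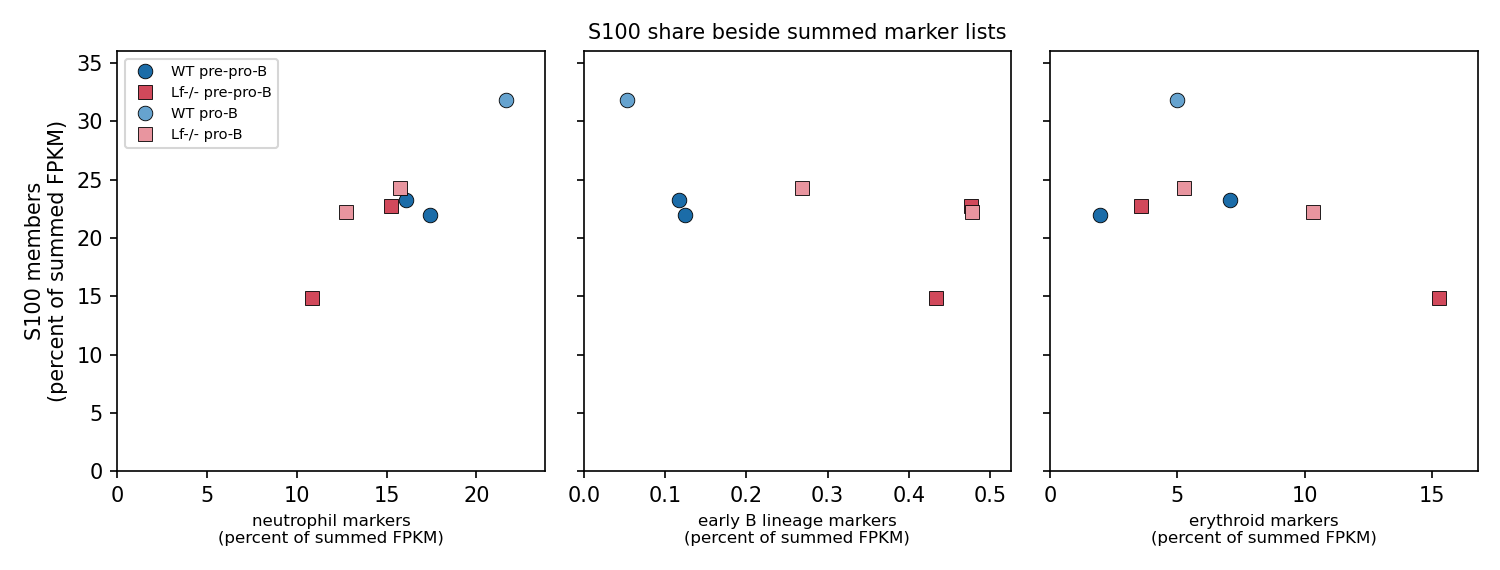
S100 share of summed FPKM against the share of 18 neutrophil, 20 early B lineage and 9 erythroid markers (percent of summed FPKM), 1 point per library, circles for WT and squares for Lf-/-. WT pro-B is highest for S100 (31.8%) and neutrophil markers (21.6%) and lowest for early B lineage markers (0.0537%).

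It was first asked whether the S100 genes differed between Lf-/- and WT mice at the pre-pro-B stage. On the log2(FPKM + 1) scale 7 of 8 members were lower and 1 was higher in Lf-/- cells, with a median difference of -0.37, beside 0.03 over the 9720 genes tested. Quantile normalization gives 0 for S100a8 and S100a9 by construction, from their ranks, so it cannot check their direction. Of the 18 neutrophil markers 17 were lower, also with a median of -0.37. Camp and Ngp were above both WT libraries in Lf-/- pre-pro-B replicate 1 and below them in replicate 2. By contrast, 18 of 19 early B lineage markers (median 1.22), 5 of 6 plasmacytoid dendritic cell markers (1.30) and 5 of 9 erythroid markers (0.91) were higher. So were 3 of 5 T and NK cell markers (0.48), whereas 7 of 12 monocyte and macrophage markers (-0.23) were lower. The part of these cell types in the result was not tested. With limma, 0 of 8 members and 0 of all genes passed an adjusted p of 0.05 (0%). In this limma fit 284 genes, with S100a6 as the only member, had an unadjusted p under 0.05. Ltf, which encodes the missing lactoferrin, differed by -4.39 with an adjusted p of 0.429 in the same limma fit. The fit thus did not call even this gene, and a member that did not pass may still differ. The genotypes did not overlap for 4 of 8 members (S100a6, S100a11 and S100a1 below WT, S100a10 above), against 33.2% of all genes. The difference was -1.26 ± 0.44 (SE) for S100a6 and -1.02 ± 0.43 (SE) for S100a1, with 2 libraries of each genotype and an adjusted p of 0.941 for both in limma. For S100a8 it was -0.37 with a 95% interval from -2.05 to 1.31, which holds both a 2-fold fall and a 2-fold rise. Without Lf-/- pre-pro-B replicate 2 it was 0.16 for S100a8 and 0.01 for S100a9, so that their direction rested on this library, and S100a10, the member that was higher, came from 0.66 to 0.03. Without Lf-/- pre-pro-B replicate 1, S100a4 came to 0.46 and S100a13 to 0.25. That fit sets the single library that stands apart against 2 WT libraries, which alone give its spread, and 36.5% of the genes tested passed in it, S100a10 (1.29) and S100a1 (-1.22) included, so that the genotype and the state of this library cannot be told apart in it. S100a13 also turned, to 0.08, without WT replicate 2, and 16 and 24 genes passed without WT replicate 1 and 2, where a lone WT library was assumed to vary like the Lf-/- libraries.

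At the pro-B stage a single WT library allowed no test with spread of its own. A gene was counted where the Lf-/- mean was at least 2-fold from the WT library with both Lf-/- libraries on the same side. This held for 1 of 8 members, S100a10, and for 13.5% of the 10793 genes. Which members reached 2-fold depended on the libraries used. Without Lf-/- pro-B replicate 2, S100a6 (1.24) and S100a4 (1.04) were past 2-fold as well as S100a10 (1.73), and so were 19.8% of all genes. The median log2 difference over all genes was 0.48, since 87.0% of them were higher in Lf-/- cells, and that of the members was 0.23. S100a10 differed by 1.53, or by 1.05 relative to the median of all genes. S100a8 and S100a9 differed by -0.67 and -0.62, or by -1.15 and -1.11 relative to that median. With median-ratio scaling the median of all genes was 0.01. S100a10 then differed by 0.89, which is under 2-fold, and S100a8 by -1.31 and S100a9 by -1.27, which are past 2-fold. With this scaling the rule of 2-fold held for 823 of 10737 genes. S100a11 turned from 0.07 to -0.57 and S100a13 from 0.38 to -0.26, and S100a4 came from 0.64 to -0.000232. Quantile normalization also turned S100a13, to -0.06. S100a1 differed by -0.23, but by 0.39 without Lf-/- pro-B replicate 1 and by -0.85 without Lf-/- pro-B replicate 2. Of the 18 neutrophil markers, 4 were higher and 6 lower by the rule of 2-fold, Ltf among the 6, with a median of -0.73. By the same rule 14 of 19 early B lineage markers (median 2.16), 7 of 8 plasmacytoid dendritic cell markers (1.47) and 7 of 10 T and NK cell markers (1.53) were higher in Lf-/- cells and none lower, and the part of these cell types was not tested.

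Over both stages, with stage as a term in the fit, 3 members were higher and 5 lower with the Lf-/- genotype, and of the 3, S100a4 (0.04) and S100a13 (0.11) turned to -0.32 and -0.25 with median-ratio scaling. The median of the members was -0.29, beside 0.21 over the 10793 genes. With limma 0 of 8 members passed, against 0.185% of all genes, and 774 genes had an unadjusted p under 0.05, S100a10 among them. S100a10 differed by 1.01 ± 0.38 (SE), or by 0.80 relative to the median of all genes, where S100a1 came to -0.91, with an adjusted p for S100a10 of 0.631 in limma. S100a10 was the 1 of 8 members whose genotypes did not overlap, against 11.0% of all genes. The difference was -0.49 (95% interval -1.26 to 0.29) for S100a8 and -0.45 (-1.14 to 0.24) for S100a9. Without Lf-/- pre-pro-B replicate 2 it was -0.25 for S100a8, -0.31 for S100a9 and 0.78 for S100a10, and without Lf-/- pre-pro-B replicate 1 -0.78, -0.65 and 1.41. Without WT pro-B, S100a10 came to 0.66. The 20 genes called came to 123 without Lf-/- pre-pro-B replicate 2, 59 without Lf-/- pre-pro-B replicate 1, 5 and 6 without WT pre-pro-B replicate 1 and 2, 3 without either Lf-/- pro-B library and 0 without WT pro-B, and no member passed in any of these fits.

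Pro-B and pre-pro-B cells were compared over both genotypes. In pro-B cells 4 members were higher and 4 lower, with a median of 0.10 beside -0.03 over all genes. Also higher were 10 of 10 T and NK cell markers (median 0.90), 8 of 9 erythroid (0.18), 12 of 18 neutrophil (0.16) and 6 of 8 plasmacytoid dendritic cell markers (0.28). Lower were 9 of 12 monocyte and macrophage markers (-0.22) and 15 of 19 early B lineage markers (-0.36). The part of these cell types was not tested. With limma 0 of 8 members passed, against 0.00927% of all genes, and 260 genes, with S100a6 as the only member, had an unadjusted p under 0.05. S100a11 was the 1 of 8 members whose stages did not overlap, against 2.15% of all genes. It differed by 0.56 ± 0.28 (SE) and S100a6 by 1.08 ± 0.47 (SE), with an adjusted p of 0.947 for both in limma. The S100a6 difference was 1.94 without WT pro-B and 0.69 without Lf-/- pro-B replicate 1. Without WT pro-B, S100a10 turned from -0.19 to 0.15, and without Lf-/- pre-pro-B replicate 2 it came to 0.04 and 36 genes passed.

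It was also tested whether the genotype difference itself differed between the stages. With limma 0 of 8 members and 0% of all genes passed, and 296 genes had an unadjusted p under 0.05. S100a6, the only member among these, differed by 2.16 ± 0.67 (SE), with an adjusted p of 0.990 in limma, or by 1.71 relative to the median of all genes. Without Lf-/- pre-pro-B replicate 1, which again leaves the library that stands apart alone in its group, 561 genes passed and no member did.

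**Figure D4:**
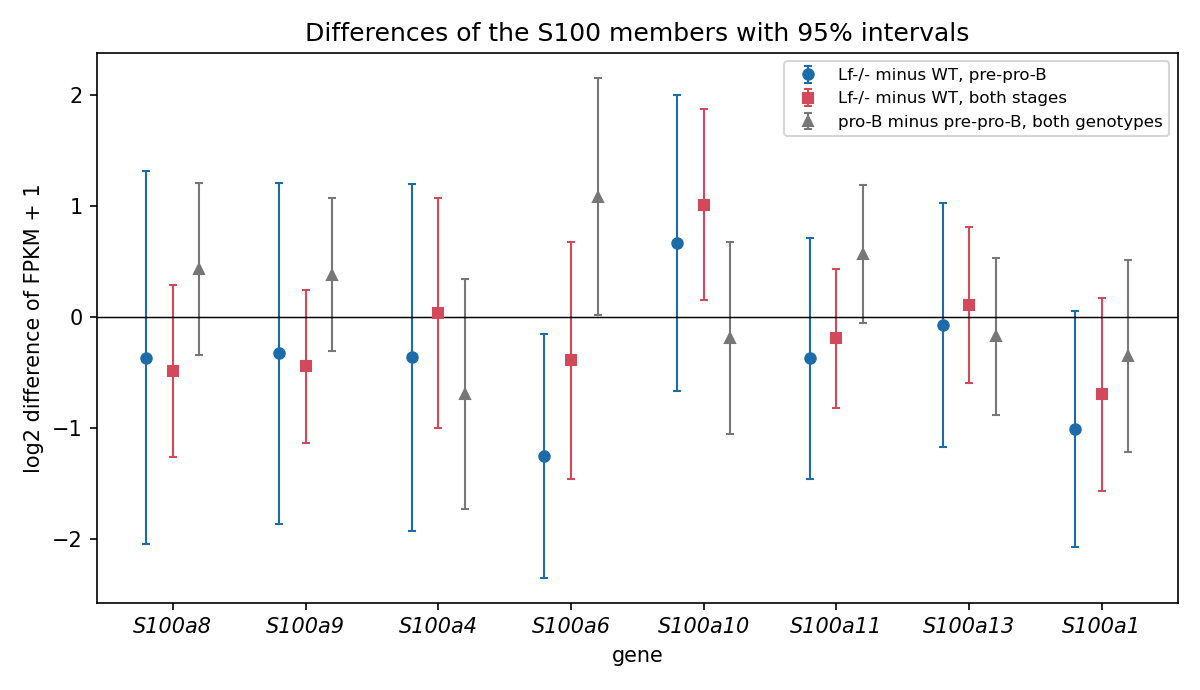
Log2 differences of FPKM + 1 of the 8 S100 genes with 95% intervals from limma, for Lf-/- minus WT in pre-pro-B cells (circles), Lf-/- minus WT over both stages (squares) and pro-B minus pre-pro-B (triangles). The intervals of S100a6 in pre-pro-B cells and between stages, and of S100a10 over both stages, leave out 0, and none of the differences passed after adjustment over all genes.

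Other S100 genes were nearly absent. Of 10 listed, 9 were found, and at most 1 of them reached 1 FPKM in a library. This was S100a7a, with 16.8 FPKM in Lf-/- pre-pro-B replicate 2 and at most 0.791 FPKM elsewhere. Of 8 genes of S100 receptors, 4 entered the fit over both stages, all 4 were higher in Lf-/- cells with a median log2 difference of 0.51, beside 66.8% of all genes that were higher, and none passed. Cd69, an early activation marker of lymphocytes on this list, had between 6.36 and 18.8 FPKM in WT and up to 90.7 FPKM in Lf-/- libraries. All 4 Lf-/- libraries lay above all 3 WT libraries for Cd69, and the genotypes did not overlap for 11.0% of all genes. Cd69 differed by 2.27 on the log2 scale and did not pass, with an adjusted p of 0.107 in limma. Bsg, which encodes a receptor of S100a9, had between 66.3 and 101 FPKM. The levels of Tlr4 and Ager, which encode the best known receptors of S100 proteins, were at most 0.550 and 1.37 FPKM. Of 15 annexins and other partners, 12 entered the fit over both stages and none passed, with a median of 0.32. Anxa1 led them in every library, with between 562 and 1047 FPKM. The ratio of S100a10 to Anxa2, its partner, ran from 0.532 in WT pro-B to 1.27 in Lf-/- pre-pro-B replicate 1 on the FPKM scale. Among 12 other EF-hand calcium binders none passed, with a median of 0.09, and Calm2, a calmodulin gene, led them with between 277 and 520 FPKM.

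All 10 regulators of S100a8 and S100a9 transcription entered the fit over both stages, and none passed, with a median of 0.12. Cebpe, a factor of granulocyte maturation, had between 121 and 269 FPKM, and Spi1, which encodes PU.1, between 115 and 193 FPKM. Of the early B lineage markers, 19 of 19 tested in the same fit were higher in Lf-/- cells, with a median of 1.54, and 3 passed. Among these 3 were 2 genes of the B cell receptor complex. Cd79a rose by 2.79 and Cd79b by 2.82 on the log2 scale in Lf-/- cells, with adjusted p of 0.0273 and 0.0136 in limma. Both were higher in all 4 Lf-/- libraries than in all 3 WT libraries, and the genotypes did not overlap for 11.0% of all genes. Among 9 markers of plasmacytoid dendritic cells, Ly6d, also a gene of lymphoid progenitors, rose by 2.85 with an adjusted p of 0.0136 in limma. No gene passed without WT pro-B or with no filter. Leaving out 1 library gave 2.41 to 3.04 for Cd79a, 2.66 to 3.02 for Cd79b and 2.64 to 3.04 for Ly6d. Ltf was the only 1 of the 18 neutrophil markers that passed, and the median of this list was -0.47. Of 12 monocyte and macrophage markers (median 0.10), 10 T and NK cell markers (0.57) and 9 erythroid markers (0.63), none passed. The part of these cell types in the levels of the S100 genes was not tested.

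The genes most like each member were taken by Pearson correlation of log2 levels over the 7 libraries, among genes with a mean of at least 10 FPKM. For S100a8 these were S100a9 (0.984), Camp (0.977), Rpl38-ps1 (0.975), Gm8129 (0.969) and Atp5k (0.969). For S100a9 they were Hmgb2 (0.984), S100a8 (0.984), AC153546.1 (0.976), Tnfaip2 (0.971) and Camp (0.938). Camp, which encodes the cathelicidin of neutrophil granules, was near both, at 0.936 for S100a8 and 0.831 for S100a9 without Lf-/- pre-pro-B replicate 2. S100a11 was nearest to its copies Gm12854 (0.943) and Gm7665 (0.943), followed by Retnlg (0.879), a neutrophil gene. S100a10 was nearest to Snx5 (0.994), Cat (0.993) and Scpep1 (0.991), and S100a6 to Cotl1 (0.952), Pilra (0.944) and Mcemp1 (0.936). S100a4 was nearest to Ccl9 (0.973), Rpa1 (0.948) and Scp2 (0.945). The housekeeping gene Dad1 (0.990) was nearest to S100a13, before 2310039H08Rik (0.986) and Atp5h (0.986), and Cops9 (0.982), Etfb (0.963) and Dmkn (0.954) to S100a1. This order rested in part on Lf-/- pre-pro-B replicate 2. Without it, Cotl1 came to place 17 and Pilra to place 27 for S100a6, Atp5k to place 12 for S100a8, Camp to place 13 for S100a9, Scp2 to place 13 for S100a4 and Retnlg to place 11 for S100a11, while Hmgb2 for S100a9 and Dad1 for S100a13 were still nearest. All genes of a library share its depth and cell make-up, and 7 points give high values for many genes. Between members, the correlation was 0.870 for S100a6 and S100a11 and -0.874 for S100a8 and S100a10, and 0.886 and -0.833 without Lf-/- pre-pro-B replicate 2. For the neighbours S100a1 and S100a13 it was 0.341, and 0.674 without that library.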

How the data were processed

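B lineage cells of both stages were sorted and their RNA sequenced, and the authors deposited gene values per library that were read as FPKM from their form. The submitters' processing notes name TopHat, Cufflinks, HTSeq, DESeq and the GRCm38 build. The methods of the study give more mice per group than the labels give samples. Values were used as deposited. Genes of at least 1 FPKM in 2 or more libraries of a comparison were tested on log2(FPKM + 1) with limma 3.58.1 (moderated by trend, two-sided) in R 4.3.3, with Benjamini-Hochberg adjustment over all genes, and differences on this scale understate the change of low genes. The fits were tested on simulated data with large known shifts, the same spread in every gene and no library that stands apart. That test does not measure how well small differences are found in data like these. Tables, figures and motif matches were made with Python 3.11.15, pandas 2.3.3, numpy 2.4.6 and matplotlib 3.10.9, and copies were found with blastn 2.17.0. The members and lists were chosen with earlier results of these data known. Beside members, the text names list genes that passed a fit or were among the 4 with the highest mean FPKM, and the nearest 5 (S100a8, S100a9) or 3 genes. A list gene that this rule would name is not reported here. Rag1, Rag2 and Bst1 (listed at 0), the levels of Ly6g, Cd177, Csf3r, Tlr4 and Ager and the GGAAGT motif were chosen after seeing the data. Alternatives were TPM, median-ratio and quantile scaling, a pseudocount of 0.1, other filters, a replicate block, other denominators and each library left out.

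Depth was estimated from low values by a method chosen after seeing the data. For genes with 1 fragment in both of a pair of libraries, the ratio of FPKM is the inverse ratio of depths, whatever the gene's length. The most frequent ratio gave depths of 1.09 (WT pre-pro-B replicate 2), 0.997 and 1.44 (Lf-/- pre-pro-B replicate 1 and 2), 1.27 (WT pro-B) and 1.01 and 1.40 (Lf-/- pro-B) relative to WT pre-pro-B replicate 1, and the same ratios through the other libraries. Few genes lay at this ratio: 11 of 2067 compared for Lf-/- pre-pro-B replicate 2, against 5 at the next most frequent ratio, and 17 for Lf-/- pro-B replicate 2, against 15. The smallest common step that fitted all libraries corresponds to about 11.2 M fragments in WT pre-pro-B replicate 1, and multiples of it scored nearly as high.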

Additional observations from a re-analysis of the deposited data

Results flagged for a closer look

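For S100a6 the genotype difference ran in opposite directions at the stages. Both Lf-/- libraries were below both WT libraries of pre-pro-B cells, and both were above the WT library of pro-B cells. The difference was -1.26 for pre-pro-B and 0.90 for pro-B cells on the log2(FPKM + 1) scale, and the latter came to 0.42 relative to the median of all genes, of which 87.0% were higher at this stage, and to 0.25 with median-ratio scaling. It was 0.56 without Lf-/- pro-B replicate 1 and 1.24 without Lf-/- pro-B replicate 2. The effect in pro-B minus that in pre-pro-B cells was 2.16, with an adjusted p of 0.990 in limma, and 1.68 with median-ratio scaling. S100a11 showed the same arrangement with a value of 0.45 and an adjusted p of 0.990 in limma, but with median-ratio scaling its pro-B difference was -0.57 and this value -0.03. Such an arrangement in every library was found for 2 of 8 members and for 11.7% of the 10793 genes tested, where the median of this effect was 0.45. WT pro-B had 1 library, which was assumed to vary like the others. Single libraries far from their own group were not tested for, since no group had more than 2 libraries.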

How the results depend on the processing

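No member passed in the tests reported, and of 464 tests of a member under alternatives 2 passed, both without Lf-/- pre-pro-B replicate 1: S100a10 (1.29, adjusted p of 0.0261 in limma) and S100a1 (-1.22, adjusted p of 0.0475 in limma). That fit holds a single Lf-/- library, the one that stands apart, which is assumed to vary like the 2 WT libraries, and 36.5% of the genes tested passed in it, so these 2 calls give no measure of the genotype. Adjusted p of the members ran from 0.0261 to 1 at the pre-pro-B stage, 0.822 to 0.996 for pro-B in fits of all 7 libraries, 0.0556 to 1 over both stages, 0.276 to 1 between stages and 0.120 to 1 for the genotype difference between stages. Under alternatives other than leaving out a library, 309 log2 differences were labelled unchanged. These kept their direction and side of the threshold or, without a test, stayed within the spread of replicates. Of the rest, 20 lost a call or came to 0, 9 reversed and 17 without a test moved by more than that spread. Differences without a test at the pro-B stage were not labelled by direction, so their turns are not among the 9.

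The number of genes called depended on the processing, and the cause was not tested. Leaving out 1 library gave 0 to 3338 genes for pre-pro-B, 1422 to 2138 for pro-B, 0 to 123 over both stages, 0 to 36 between stages and 0 to 561 for the genotype difference between stages. Where this leaves 1 library in a group, it is assumed to vary like the others. For pro-B, TPM scaling gave 2506, median-ratio scaling 823, quantile normalization 833, a pseudocount of 0.1 2853 and a test in the fit of all 7 libraries 0. Over both stages, median-ratio scaling gave 7, quantile normalization 11, a pseudocount of 0.1 9, no filter 0 and 1 FPKM in every library 63. Between stages, quantile normalization, a pseudocount of 0.1, no filter and the 4 Lf-/- libraries alone gave 0, and 1 FPKM in every library 6. For the genotype difference between stages, no filter gave 122.

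With the replicate number as a block, 65 genes passed for pre-pro-B, 22 over both stages and 0 between stages, and 8 between stages with the mouse label as a block. Deviations of libraries with the same number correlated at -0.0365 and -0.0971, and the labels do not say that a number marks a shared animal or day. The block turned S100a4 over both stages to -0.0607. Further blocked fits were chosen after seeing the data. For the genotype difference between stages, 0 genes passed with the replicate number and 29 with the mouse label as a block, and no member in either. For pro-B, within a fit of all 7 libraries with the replicate number as a block, 0 genes passed and S100a11 came to -0.0126.

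Some small differences changed direction, and the cause was not tested. Over both stages, median-ratio scaling gave -0.32 for S100a4 and -0.25 for S100a13, and quantile normalization -0.0733 and -0.0602. For the genotype difference between stages, median-ratio scaling gave -0.0297 for S100a11 and -0.0137 for S100a13. In the 4 Lf-/- libraries alone the stage difference was 0.15 for S100a10 and 0.00272 for S100a13. For pro-B, median-ratio scaling gave -0.57 for S100a11, -0.26 for S100a13 and -0.000232 for S100a4, and quantile normalization -0.0584 for S100a13. Leaving out 1 library gave -0.85 to 0.39 for S100a1 at this stage and, for pre-pro-B, -0.90 to 0.16 for S100a8, -0.67 to 0.0117 for S100a9, -1.19 to 0.46 for S100a4 and -0.41 to 0.25 for S100a13. Over both stages it gave -0.37 to 0.55 for S100a4 and -0.0767 to 0.32 for S100a13. Between stages it gave -0.60 to 0.15 for S100a10 and -0.39 to 0.00272 for S100a13, and for the genotype difference between stages -0.83 to 0.24 for S100a8 and -0.64 to 0.0509 for S100a9. Quantile normalization sets the differences of S100a8 and S100a9 to 0 by construction, since they rank 1 and 2 in each library.

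Without the neutrophil markers in the denominator, the mean S100 share was 27.2% for WT pre-pro-B, 21.7% for Lf-/- pre-pro-B, with 26.8% and 16.6% in its libraries, 27.1% for Lf-/- pro-B and 40.6% for WT pro-B, against 22.6%, 18.8%, 23.3% and 31.8% of all summed FPKM. The pro-B comparison and the genotype difference between stages were not run without WT pro-B, since no WT pro-B library is then left. Depth could only be estimated, which limits what can be said of genes near 0.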
